A study of Mus musculus with 4 samples.

Results

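Solute carriers are the membrane proteins that move amino acids, sugars, nucleosides, vitamins, metals and inorganic ions across the plasma membrane and the membranes of organelles. They are grouped into numbered families by sequence, and most work as exchangers, cotransporters or uniporters without consuming ATP directly. Macrophages use them to take up fuel, to export lactate, to recycle what their lysosomes digest and to feed mitochondria, and several carriers of the endolysosome also pass bacterial products to intracellular sensors.

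The expressed solute carriers were defined as the gene symbols that start with Slc and a digit and average 1 FPKM or more across the 4 libraries. The zinc families Slc30 and Slc39 and 10 single symbols (Slc38a2, Slc7a11, Slc3a2, Slc7a5, Slc7a2, Slc2a1, Slc16a3, Slc40a1, Slc11a1 and Slc11a2) were left out. FPKM is the number of fragments per kilobase of transcript and scaled to the mapped fragments of the library. Of 357 such symbols in the files, 34 were left out by name, 197 lay below the minimum, 92 of them at 0 in every library, and 126 were kept. The mean FPKM over all libraries chose these genes and is given below as a description; it does not use the difference between the groups. Of the 126, 3 are named after a carrier without being one. Slc9a3r1 encodes a scaffold protein and Slc4a1ap an adaptor protein. Slc7a6os is a separate gene, named for its place on the strand opposite to the carrier gene Slc7a6, and their spans do not overlap.

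The cells were macrophages grown from the bone marrow of wild-type mice, a culture model of primary macrophages. All cultures received lipopolysaccharide (LPS), a cell wall component of Gram-negative bacteria, at 1 µg/ml for 1 h, and then galectin-1, a lectin that binds galactose-containing glycans, as the recombinant mouse protein, or phosphate-buffered saline as the vehicle for 24 h. There were 2 libraries per group; unstimulated cells were not analysed here. The sources used here give neither the strain, sex and age of the mice nor the galectin-1 dose. The labels do not say whether a group's libraries are from separate cultures or mice, so p-values cover the spread between samples alone, and that spread may be technical.

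Library totals were 541138 to 557661 FPKM. Relative to vehicle replicate 1, the other depths were 0.872 to 1.03, read from the steps between low FPKM values, and the absolute depth is unknown. Of 8 macrophage markers, 7 were found, all expressed, from 18.0 FPKM for Mertk to 5974 FPKM for Lyz2; Adgre1 was not found under that symbol. The 7 markers summed to 8897 and 8902 FPKM with vehicle and to 9642 and 9655 FPKM with galectin-1. Fibroblast markers summed to 14.2 FPKM in both vehicle libraries and to 17.3 and 17.8 FPKM with galectin-1, and dendritic cell markers to 13.2 and 13.4 against 9.49 and 9.95 FPKM; in the latter list Fscn1 was the gene past the threshold. Neutrophil markers summed to at most 2.92 FPKM in any library, with Elane and Ltf at 0, and the lists for B, T and NK, erythroid, mast and basophil cells to at most 0.213 FPKM. Of the 7 macrophage markers none passed and 6 were higher with galectin-1, while Mertk was lower (19.8 and 18.3 against 17.0 and 16.7 FPKM). Most of the macrophage sum was Lyz2 (5761 and 5642 against 6269 and 6223 FPKM). Most of the dendritic cell sum was Fscn1 (11.3 and 11.7 against 7.84 and 8.18 FPKM). Macrophage, fibroblast and dendritic cell sums thus differed between the groups, in 2 lists mostly through 1 gene, and their part in the differences below was not tested. In such bulk samples fewer cells of a type and less RNA per cell cannot be told apart.

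The level of the carriers spanned a wide range. There were 7 carriers over 100 FPKM, 49 genes from 10 to 100 FPKM and 70 genes under 10 FPKM, of which 21 lay under 2 FPKM. The median level was 7.27 FPKM, beside 9.37 FPKM over the 9380 tested genes. The summed FPKM of the 126 genes was 3069 and 3097 with vehicle and 3147 and 3178 with galectin-1, and the 10 most abundant made up 58.3% to 59.0% of it in each library. Both sums with galectin-1 lay above both with vehicle. So did the library totals over all genes, 557661 and 555507 FPKM against 553191 and 541138 FPKM, and the difference of the sums was not tested.

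The most abundant was Slc15a3, an endolysosomal carrier of histidine and peptides that is induced by Toll-like receptor ligands, with a mean of 508 FPKM. Next came Slc2a6, a facilitative hexose transporter of the lysosome, at 294 FPKM, and Slc6a6, the taurine transporter, at 229 FPKM. Slc25a3, the mitochondrial phosphate carrier, had 165 FPKM and Slc25a5, an ADP/ATP exchanger of the inner mitochondrial membrane, 147 FPKM. Slc28a2, a concentrative nucleoside transporter, had 143 FPKM, and Slc31a2, a copper carrier of endosomes and lysosomes, 123 FPKM. Amino acid and peptide carriers held 28.8% to 30.2% of the summed FPKM in a library and Slc25 carriers 23.3% to 24.2%. The Golgi and endoplasmic reticulum class held 4.1% to 4.4%.

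**Figure D1:**
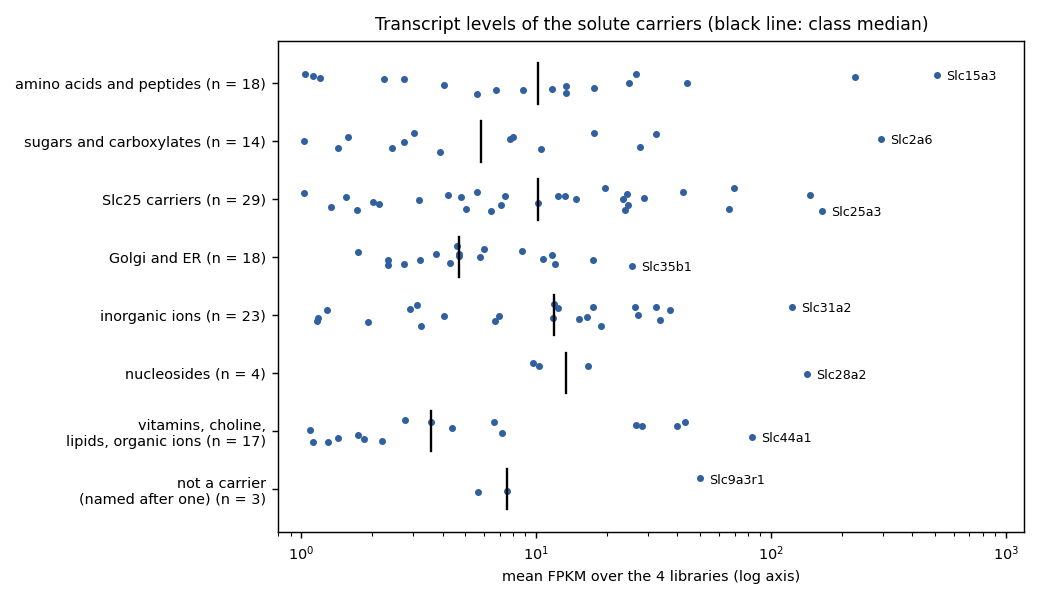
Mean FPKM over the 4 libraries on a log axis for the 126 genes, each a point, in rows by transport class; black lines are class medians and the most abundant gene of each class is named. Class medians lie between 3.55 FPKM for vitamin, choline, lipid and organic ion carriers and 13.4 FPKM for the 4 nucleoside carriers, and Slc15a3 stands highest at 508 FPKM.

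The comparison of galectin-1 with vehicle asks how the lectin alters the transport genes of LPS-stimulated macrophages. Of the 126 genes, 1 fell, none rose and 125 did not pass limma's moderated test on log2(FPKM + 1) at an adjusted p under 0.05 (Benjamini-Hochberg over all 9380 tested genes). That is 0.794% of the carriers, where 1.19% of all tested genes passed; of those 112 genes, 50.9% were higher, or 33.8% of 71 after quantile normalization. An unadjusted p under 0.05 was found for 33 carriers (26.2%), 22 higher and 11 lower, beside 23.2% of all tested genes. The groups did not overlap for 44 carriers higher with galectin-1 (34.9%) and 31 lower (24.6%), where 29.1% and 26.2% of all tested genes did so. These shares lie close to those of all tested genes. The median log2 fold change was 0.013, beside 0.0024 over all tested genes, and the median absolute value 0.11, beside 0.091. Every one of the 126 values lay between -0.43 and 0.47.

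The 5 genes that reached 1 FPKM in 1 group mean and not in the other were Slc22a4, Slc45a3 and Slc25a23, below it with vehicle, and Slc7a14 and Slc38a9, below it with galectin-1. Just above the minimum stood Slc25a23 (1.03 FPKM), Slc45a3 (1.03 FPKM) and Slc38a9 (1.04 FPKM), and just below it Slc16a13 (0.950 FPKM), Slc24a3 (0.912 FPKM) and Slc45a4 (0.911 FPKM). Level and direction went together among the carriers as among all tested genes. Of 76 carriers with a mean of at least 5 FPKM, 63.2% had a positive difference, beside 56.5% of all such genes. Of the 50 below 5 FPKM, 40.0% did, beside 38.98%. An unadjusted p under 0.05 was found for 36.8% of the 76, beside 26.9%, and for 10.0% of the 50, beside 15.5%. Groups did not overlap for 47.4% of the 76 higher and 19.7% lower, beside 35.1% and 23.6%. For the 50 this was 16.0% and 32.0%, beside 17.1% and 31.5%.

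**Figure D2:**
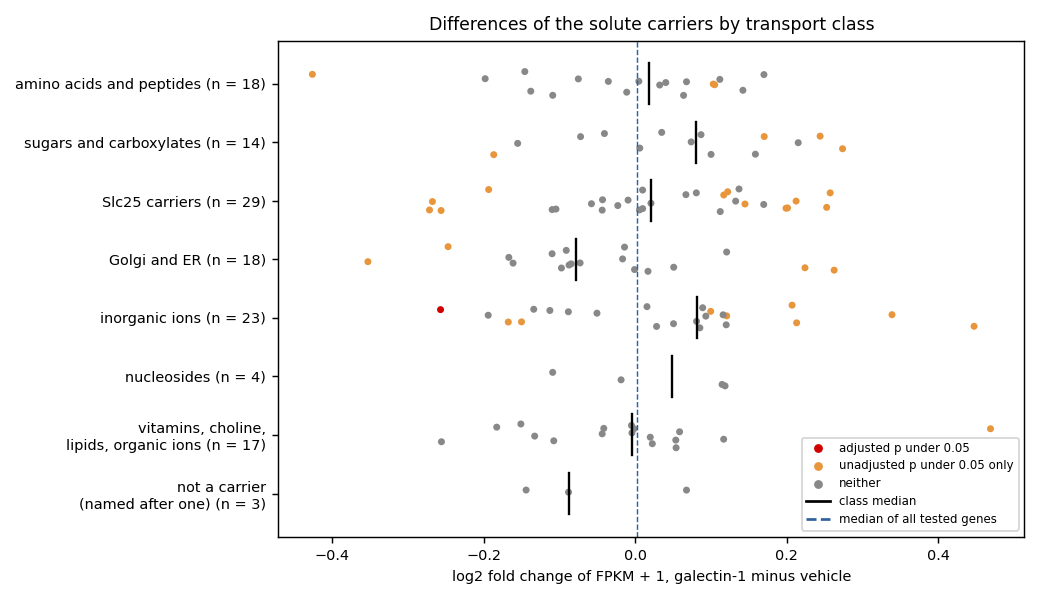
Log2 fold change of FPKM + 1, galectin-1 minus vehicle, for the 126 genes in rows by transport class, with class medians as black lines and the median of all tested genes as a dashed line; red marks an adjusted p under 0.05, orange an unadjusted p under 0.05 only. The single red point is Slc31a2 at -0.26, and the class medians run from -0.09 to 0.08.

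The gene that fell was Slc31a2, which encodes the low-affinity copper carrier CTR2. It had 133 and 135 FPKM in the vehicle libraries and 113 and 111 FPKM in the galectin-1 libraries. Both galectin-1 libraries lay below both vehicle libraries by more than the spread within either pair. The means were 134 ± 1.48 and 112 ± 1.80 FPKM (SD, n = 2), which differ by -0.26 on the log2 scale (limma standard error 0.03, adjusted p = 0.0413). The call needed all 4 libraries: without any one of them the adjusted p lay between 0.172 and 0.221 and the log2 fold change between -0.27 and -0.24. It was also lost with no filter on low values (adjusted p = 0.130) and in limma without a variance trend (0.138). In those fits 3 and 2 of all tested genes passed. With all 4 libraries the call of Slc31a2 held in the other alternatives. There the limma adjusted p ran from 0.0158 without small RNA entries to 0.0420 with quantile normalization.

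Its paralog Slc31a1 encodes CTR1, the high-affinity copper importer of the plasma membrane, and had the opposite sign. Slc31a1 had 30.2 and 29.7 FPKM with vehicle and 36.0 and 33.8 FPKM with galectin-1, again without overlap of the groups. Its log2 fold change was 0.21 (standard error 0.05, 95% interval 0.10 to 0.33, adjusted p = 0.0894), so it did not pass. On the FPKM scale Slc31a2 exceeded Slc31a1 4.40-fold and 4.54-fold in the vehicle libraries and 3.14-fold and 3.28-fold in the galectin-1 libraries. A permutation of 2 against 2 libraries cannot give a 2-sided p below 0.333, so this shift of the ratio is given as a description.

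Both copper genes lie on the plus strand of chromosome 4. In GRCm38.p6, the assembly of mm10, Slc31a2 spans 62280393 to 62298412 and Slc31a1 spans 62360583 to 62391769, with 62.2 kb between them. The gene between them, Fkbp15, had 13.6 FPKM with vehicle and 12.3 FPKM with galectin-1 (log2 fold change -0.13, adjusted p = 0.337). The 250 bases before an annotated start of each gene, from RefSeq, are printed because this pair of paralogs held the called gene and differed in sign. Capitals mark the GC box GGGCGG, searched on both strands together with the E-box CACGTG, the AP-1 motif TGANTCA and the TATA box TATAAA. The Slc31a2 window is chr4:62286179-62286428 and the Slc31a1 window chr4:62360451-62360700. These starts are not the outermost ones: the Slc31a2 window lies inside the span given above, and the Slc31a1 window reaches into it.
Slc31a2: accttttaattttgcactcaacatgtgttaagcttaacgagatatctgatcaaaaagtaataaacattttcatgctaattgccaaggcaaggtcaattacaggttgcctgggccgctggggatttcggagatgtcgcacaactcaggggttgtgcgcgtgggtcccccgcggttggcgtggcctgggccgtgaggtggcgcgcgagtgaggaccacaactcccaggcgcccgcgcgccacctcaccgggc
Slc31a1: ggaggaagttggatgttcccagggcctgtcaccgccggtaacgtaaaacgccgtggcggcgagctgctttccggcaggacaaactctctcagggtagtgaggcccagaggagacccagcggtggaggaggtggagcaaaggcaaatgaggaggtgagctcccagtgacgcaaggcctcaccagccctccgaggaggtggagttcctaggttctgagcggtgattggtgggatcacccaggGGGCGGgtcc

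The Slc31a1 window held 1 GC box and the Slc31a2 window 0 of the 4 motifs. The promoter table had entries for 100 of the 126 genes, with 138 windows. Of these windows 60.9% held GGGCGG, beside 58.7% of 8725 windows of tested genes and 32.7% of all 32851 windows. CACGTG was in 15.2%, beside 8.80% and 6.02%. TGANTCA was in 6.52%, beside 4.61% and 6.75%, and TATAAA in 4.35%, beside 6.30% and 12.4%. No motif contains another, and a match in a window is only a match of letters.

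Inorganic ion carriers numbered 23, of which Slc31a2 fell and 22 did not pass. Their median level was 11.9 FPKM and their median log2 fold change 0.08. Of the 23, 15 were positive (65.2%, beside 50.7% of all tested genes and 56.5% of those of at least 5 FPKM). An unadjusted p under 0.05 was found for 6 higher and 3 lower, 39.1% of the class, beside 23.2% of all tested genes. Among tested genes of at least 5 FPKM this share was 26.9%. Slc24a6, now called Slc8b1, encodes the sodium-calcium exchanger of mitochondria and lies on chromosome 5 from 120511168 to 120534024. It had 12.1 and 13.3 FPKM with vehicle and 16.7 and 18.7 FPKM with galectin-1 (log2 fold change 0.45, standard error 0.07, 95% interval 0.26 to 0.63, adjusted p = 0.0581). The galectin-1 libraries were both higher than the vehicle libraries.

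Slc26a2, the sulfate transporter, had 10.3 and 10.5 FPKM with vehicle and 13.9 and 12.9 FPKM with galectin-1 (log2 fold change 0.34, adjusted p = 0.0614). The magnesium transporters of family 41 differed in sign without passing. Slc41a2 had 6.37 FPKM in both vehicle libraries and 7.30 and 7.72 FPKM with galectin-1, while Slc41a1 had 2.21 and 2.05 against 1.79 and 1.68 FPKM. Slc41a3 had 4.35 and 4.05 against 4.46 and 3.38 FPKM, and its groups overlapped (log2 fold change -0.09). Slc12a7, a potassium-chloride cotransporter, had 35.8 and 38.5 FPKM as group means (log2 fold change 0.10, adjusted p = 0.214).

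Amino acid and peptide carriers numbered 18. None passed, and the median log2 fold change was 0.019. At an unadjusted p under 0.05 there were 2 higher and 1 lower, 16.7% of the class, beside 23.2% of all tested genes. The lower one was Slc7a7, which encodes y+LAT1, the light chain that pairs with the Slc3a2 heavy chain to export cationic amino acids such as arginine in exchange for neutral ones. Slc7a7 had 13.5 and 13.7 FPKM with vehicle and 9.35 and 10.4 FPKM with galectin-1, the lowest log2 fold change of all 126 genes (-0.43, standard error 0.07, 95% interval -0.59 to -0.26, adjusted p = 0.0552). The groups did not overlap. Slc7a7 lies on chromosome 14 from 54369442 to 54420068, and an annotated exon overlaps one of Oxa1l on the other strand. Oxa1l had 7.09 and 7.08 FPKM (log2 fold change 0.0015); the sources used here do not say whether the authors' quantification used strand.

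The higher ones were Slc6a6 and Slc15a3, the 2 most abundant of the class. Slc6a6 had 222 and 219 FPKM with vehicle and 236 and 238 FPKM with galectin-1 (log2 fold change 0.10, standard error 0.03, adjusted p = 0.116). Slc15a3 had 493 and 488 FPKM with vehicle and 519.8 and 533 FPKM with galectin-1 (0.10, standard error 0.03, adjusted p = 0.117). Groups did not overlap for either, and the differences were small beside their levels. An exon of Slc15a3 overlaps one of Tmem132a on the other strand, which had 20.8 and 25.8 FPKM (0.30, adjusted p = 0.0555).

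Slc15a4, the endolysosomal histidine and peptide carrier needed for signalling by intracellular Toll-like receptors, had 17.2 and 17.1 FPKM with vehicle and 16.9 and 19.1 FPKM with galectin-1. Its groups overlapped, with a 95% interval of the log2 fold change from -0.10 to 0.23. Glutamine transporters of the plasma membrane among the kept genes included Slc1a5 and Slc38a1. Slc1a5 had 6.31 and 7.21 FPKM as group means and Slc38a1 had 26.0 and 27.3 FPKM. Their limma adjusted p were 0.236 and 0.402. Slc38a2, of the same family as Slc38a1, was left out by name and is not among the kept genes. Slc38a2 had 8.17 and 13.4 FPKM as group means and passed (log2 fold change 0.65, limma adjusted p = 0.0351). Slc7a8, a light chain for large neutral amino acids, had 43.8 and 43.9 FPKM, with an interval from -0.10 to 0.11. Slc7a1, the high-affinity importer of arginine and lysine, had 5.91 and 5.28 FPKM (log2 fold change -0.14, adjusted p = 0.301). Slc38a9, the lysosomal arginine sensor upstream of mTORC1, was close to the expression minimum at 1.14 and 0.937 FPKM.

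**Figure D3:**
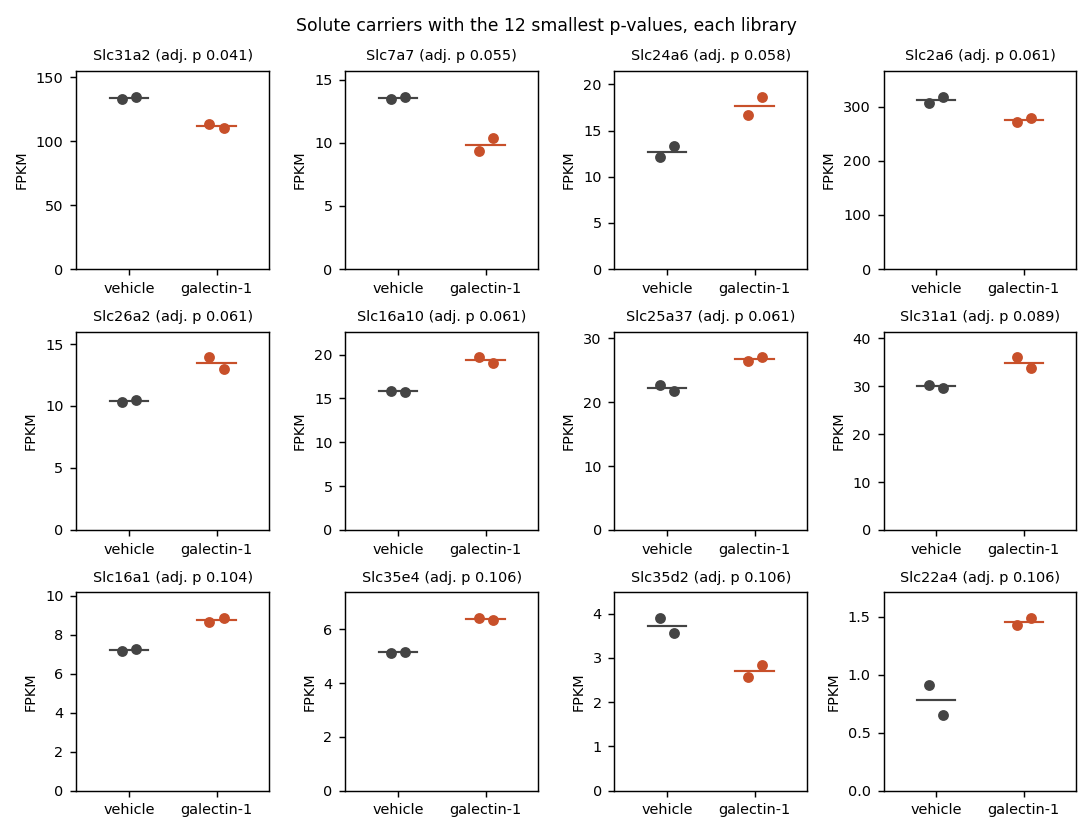
FPKM in each of the 4 libraries for the 12 carriers of smallest p, 1 panel per gene with its own axis from 0; points are libraries and lines group means, with the limma adjusted p above each panel. In all 12 panels the groups do not overlap, and only Slc31a2 has an adjusted p under 0.05 (0.041).

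Carriers of sugars and carboxylates numbered 14 and none passed. The median log2 fold change was 0.08, and 10 were positive (71.4%, beside 50.7% of all tested genes). By level, 56.5% of tested genes of at least 5 FPKM and 38.98% of those of 1 to 5 FPKM were positive. An unadjusted p under 0.05 was found for 3 higher and 1 lower, 28.6% of the class, beside 23.2%. The lower one was Slc2a6, on chromosome 2 from 27021363 to 27028000, whose product GLUT6 is known as an LPS-inducible lysosomal transporter of macrophages. It had 307 and 319 FPKM with vehicle and 271 and 278 FPKM with galectin-1 (log2 fold change -0.19, standard error 0.03, 95% interval -0.27 to -0.11, adjusted p = 0.0614). Slc2a6 held most of the summed FPKM of its class, and the class made up 12.6% and 12.8% of the total of the 126 genes with galectin-1 and 13.8% and 13.9% with vehicle.

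Slc16a10 encodes TAT1, a transporter of aromatic amino acids in the monocarboxylate transporter family. It had 15.9 and 15.8 FPKM with vehicle and 19.7 and 19.01 FPKM with galectin-1 (log2 fold change 0.27, standard error 0.05, adjusted p = 0.0614). Slc16a1, encoding the lactate and pyruvate transporter MCT1, had 7.19 and 7.30 FPKM with vehicle and 8.67 and 8.85 FPKM with galectin-1 (0.24, adjusted p = 0.104). Replicates of these genes lay close together and the groups were separate. Slc37a2, a sugar-phosphate exchanger abundant in macrophages, had 30.5 and 34.4 FPKM as group means (0.17, adjusted p = 0.141). Slc13a3, a sodium-dependent dicarboxylate transporter, had 26.8 and 28.5 FPKM (0.09, 95% interval -0.04 to 0.21).

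Slc25 carriers, most of which sit in the inner mitochondrial membrane, numbered 29. None passed, and 8 higher and 4 lower had an unadjusted p under 0.05 in limma, 41.4% of the class, beside 23.2% of all tested genes. The class had a median level of 10.1 FPKM, and among tested genes of at least 5 FPKM this share was 26.9%. The groups did not overlap for 12 higher (41.4%) and 5 lower (17.2%), beside 29.1% and 26.2% of all tested genes, and the median log2 fold change was 0.021. Without overlap were 35.1% and 23.6% of tested genes of at least 5 FPKM. The smallest p belonged to Slc25a37, mitoferrin-1, which imports iron into mitochondria for heme and iron-sulfur clusters. It had 22.7 and 21.8 FPKM with vehicle and 26.5 and 27.0 FPKM with galectin-1 (0.26, standard error 0.05, 95% interval 0.14 to 0.37, adjusted p = 0.0614). Its paralog Slc25a28, mitoferrin-2, had 16.6 and 19.01 FPKM with vehicle and 20.4 and 22.3 FPKM with galectin-1 (0.25, adjusted p = 0.143). Both mitoferrin genes were higher in each galectin-1 library than in each vehicle library, and neither passed.

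The most abundant of the Slc25 family were Slc25a3 and Slc25a5, which supply phosphate and ADP for oxidative phosphorylation. Slc25a3 had 158 FPKM in both vehicle libraries and 178 and 166 FPKM with galectin-1 (log2 fold change 0.12, adjusted p = 0.153). Slc25a5 had 141 FPKM in both vehicle libraries and 156 and 150.1 FPKM with galectin-1 (0.12, adjusted p = 0.127). The other ADP/ATP exchanger gene, Slc25a4, had 66.2 and 66.6 FPKM as group means (95% interval of the log2 fold change -0.09 to 0.11).

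Slc25a1, which exports citrate for lipid synthesis, had 27.4 and 30.4 FPKM (log2 fold change 0.14, adjusted p = 0.168), and the dicarboxylate carrier gene Slc25a10 had 9.37 and 10.9 FPKM (0.20, adjusted p = 0.133). Slc25a22, a glutamate carrier, had 68.8 and 69.9 FPKM, and its groups overlapped. On the lower side, Slc25a43 had 6.23 and 5.00 FPKM (-0.27, adjusted p = 0.137), Slc25a45 7.08 and 5.76 FPKM (-0.26, 0.123), Slc25a14 1.56 and 1.13 FPKM (-0.27, 0.212) and the peroxisomal carrier gene Slc25a17 25.0 and 21.8 FPKM (-0.19, 0.208).

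**Figure D4:**
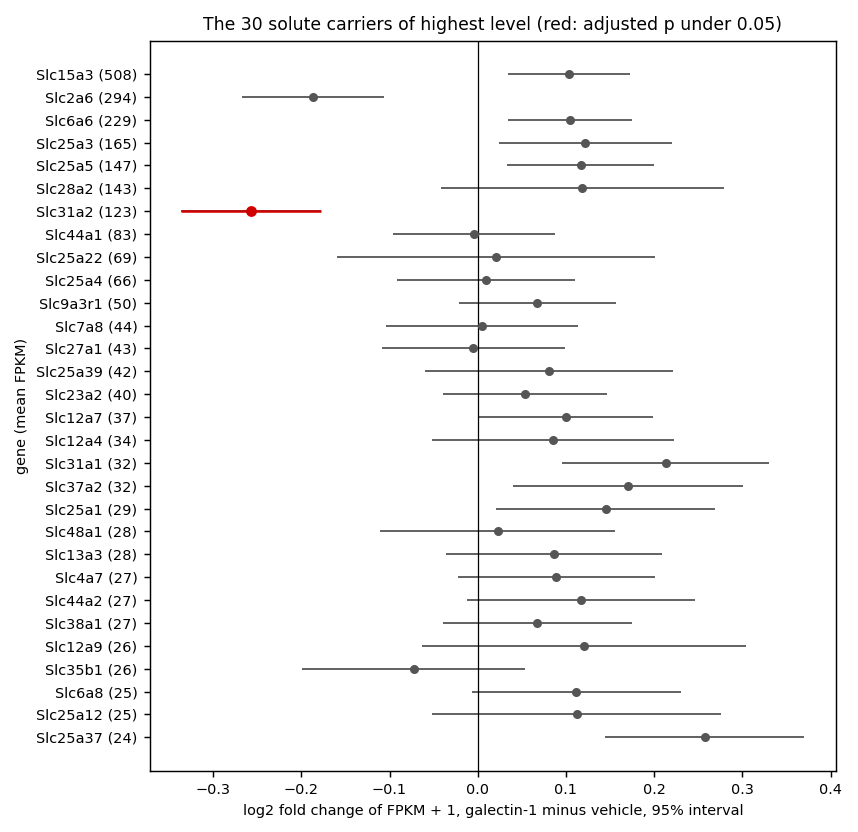
Log2 fold change of FPKM + 1, galectin-1 minus vehicle, with its 95% limma interval for the 30 genes of highest mean FPKM, ordered by level, which is given in brackets; red marks an adjusted p under 0.05. Intervals of 19 genes hold 0, those of 9 lie above it, those of Slc2a6 and Slc31a2 lie below it, and the widest reaches 0.18 to either side of its estimate.

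The Golgi and endoplasmic reticulum class held 18 genes, none past the threshold. It joins family 35, of which only some members are nucleotide sugar transporters, and the acetyl-CoA transporter Slc33a1. Here 13 of 18 differences were negative, with a median of -0.08 and a median level of 4.69 FPKM. Positive differences were 27.8% of the class, beside 50.7% of all tested genes and 38.98% of those of 1 to 5 FPKM. The class also holds genes over 5 FPKM, and of tested genes at that level 56.5% were positive. The groups did not overlap for 2 higher (11.1%) and 8 lower (44.4%), beside 29.1% and 26.2% of all tested genes. Among tested genes of 1 to 5 FPKM the latter shares were 17.1% and 31.5%. They were 35.1% and 23.6% among those of at least 5 FPKM. At an unadjusted p under 0.05 there were 2 of each, 22.2% of the class, beside 23.2% of all tested genes. Slc35d2, a nucleotide sugar transporter of the Golgi, had 3.89 and 3.55 FPKM with vehicle and 2.57 and 2.83 FPKM with galectin-1 (log2 fold change -0.35, adjusted p = 0.106). Slc33a1 had 3.99 and 4.30 against 3.20 and 3.47 FPKM (-0.25, adjusted p = 0.162). Slc35e4 had 5.12 and 5.18 FPKM with vehicle and 6.42 and 6.33 FPKM with galectin-1 (0.26, adjusted p = 0.106), and Slc35f5 had 11.0 and 12.97 FPKM as group means (0.22, adjusted p = 0.143). The most abundant of the class, Slc35b1, had 26.2 and 24.9 FPKM, with an interval from -0.20 to 0.05.

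The 4 nucleoside and nucleobase carriers had no member past the threshold and none with an unadjusted p under 0.05. Slc28a2 had 128 and 146 FPKM with vehicle and 145 and 152 FPKM with galectin-1, so its groups overlapped (log2 fold change 0.12, 95% interval -0.04 to 0.28). Slc29a3, the lysosomal nucleoside transporter, had 9.88 and 9.70 FPKM with vehicle and 10.6 and 10.8 FPKM with galectin-1 (0.11, adjusted p = 0.288). Slc29a1, the equilibrative transporter of the plasma membrane, had 16.7 and 16.5 FPKM, and the purine nucleobase transporter gene Slc43a3 had 10.1 and 9.27 FPKM (-0.11, adjusted p = 0.376).

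Of 17 carriers of vitamins, choline, lipids and organic ions, none passed, with a median log2 fold change of -0.0044. At an unadjusted p under 0.05 there was 1, 5.88% of the class, beside 23.2% of all tested genes and 15.5% of those of 1 to 5 FPKM. That one was Slc22a4, encoding OCTN1, a transporter of ergothioneine, which had 0.911 and 0.651 FPKM with vehicle and 1.43 and 1.49 FPKM with galectin-1. Its log2 fold change of 0.47 was the highest of the 126 (95% interval 0.17 to 0.76, adjusted p = 0.106), but it reached the minimum of 1 FPKM through the galectin-1 libraries, which favours a positive difference. Slc22a5, its paralog for carnitine, had 1.65 and 1.22 FPKM (-0.26, adjusted p = 0.241).

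For the abundant members of this class other than Slc44a2 the group means lay close together. Slc44a2 had 25.6 and 27.9 FPKM as group means, without overlap of the groups (log2 fold change 0.12, limma adjusted p = 0.253). Slc44a1, a choline transporter, had 83.1 ± 2.63 and 82.9 ± 0.614 FPKM (95% interval of the log2 fold change -0.10 to 0.09). Slc27a1, a fatty acid transport protein, had 43.1 ± 0.221 and 42.9 ± 1.51 FPKM (-0.11 to 0.10). Slc23a2, the ascorbate transporter, had 38.9 and 40.4 FPKM, also without overlap of the groups (log2 fold change 0.05, limma adjusted p = 0.441). The heme transporter gene Slc48a1 had 28.1 and 28.5 FPKM. Slc46a3, a lysosomal carrier, was near the minimum at 1.07 and 1.10 FPKM.

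A list that cuts across the classes held 12 carriers of endosomes and lysosomes, all among the 126. None passed, 1 (Slc15a3) had an unadjusted p under 0.05 (8.33%, beside 23.2% of all tested genes), and the median log2 fold change was 0.06. Positive differences numbered 10 (83.3%, beside 50.7% of all tested genes and 56.5% of those of at least 5 FPKM). The list sum was 610.2 to 666 FPKM per library, most of it from Slc15a3. Slc31a2 and Slc2a6 are also known from these compartments, were not on the list, and had negative values.

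The 3 genes named after a carrier did not pass either, and none had an unadjusted p under 0.05 in limma. Slc9a3r1, the scaffold protein gene, had 48.7 and 51.1 FPKM as group means (log2 fold change 0.07, adjusted p = 0.323), and Slc4a1ap had 7.90 and 7.06 FPKM (-0.14, adjusted p = 0.258). Slc7a6os had 4.80 and 7.04 FPKM in the vehicle libraries, a wider spread than the 5.41 and 5.45 FPKM in the galectin-1 libraries.

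Related genes outside the 126 were counted in the same fit. Of the 27 left-out carriers that reached 1 FPKM, 2 rose (Slc39a10 and Slc38a2), 7.41% beside 1.19% of all tested genes, and 25 did not pass. An unadjusted p under 0.05 was found for 9 higher and 3 lower of them, 44.4% beside 23.2%. The left-out symbols were set apart with earlier results of these data known. Their shares and those of the 126 genes therefore depend on that choice. Of 12 tested carriers without an Slc symbol, such as the lysosomal cystine transporter gene Ctns and the phosphate exporter gene Xpr1, none passed limma. At an unadjusted p under 0.05, 2 of these 12 were higher (16.7%, beside 23.2% of all tested genes). Of 9 tested genes for nutrient sensing at the lysosome, such as the Ragulator and Rag GTPase genes, none passed. Their median log2 fold change was 0.10, and 3 were higher at an unadjusted p under 0.05 (33.3%, beside 23.2%). Slc3a2, the heavy chain that pairs with Slc7a7 and Slc7a8, had 145 and 165 FPKM as group means (0.19, adjusted p = 0.0562).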

How the data were processed

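Total RNA of the macrophages was turned into stranded mRNA libraries, 4 in all, per the labels' protocols. The authors deposited FPKM values, 1 per gene symbol and library, for 23284 symbols. Per the submitters' processing notes the build was mm10 and the tools were Cufflinks 2.2.1, TopHat2 2.0.13, SAMtools 0.1.19 and Bowtie2 2.2.3, with no roles stated. The sources used here do not give the annotation, the use of strand or any scaling across libraries. Groups and replicate numbers came from the sample titles. No counts were used, so no count model was fitted.

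Values were analysed as log2(FPKM + 1) for the 9380 genes averaging 1 FPKM or more, with limma 3.58.1 in R 4.3.3 (variance trend, 2 residual and 3.89 prior degrees of freedom, 2-sided, Benjamini-Hochberg adjusted p under 0.05). The scale understates changes of low genes. The test was checked on simulated data. Between replicates, log2 values of the 126 genes correlated at 0.997 (vehicle) and 0.996 (galectin-1), and across groups at 0.994 to 0.995, across genes, which are not independent.

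Members, transport classes and lists were chosen with earlier results of these data known. Classes follow family numbers; the 3 genes named after a carrier were set apart. The rule for named genes took members past the threshold, the 3 of smallest p and 2 of highest level per class, the 5 highest and 5 lowest log2 fold changes without overlap, those next to 1 FPKM and 13 fixed symbols; it gave 44 members, not all printed. Other genes named, such as Slc31a1, Slc25a28, Slc25a4 and Slc41a1, were chosen after their values were seen. RefSeq loci matched all 126, 1 of them through a synonym. Of the 126, 38 have an exon overlapping one of another gene (GENCODE M21), 34 on the opposite strand.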

Additional observations from a re-analysis of the deposited data

How the results depend on the processing

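The count of carriers past the threshold was 1 as reported, 1 with quantile normalization or median-of-ratios scaling, 2 with a pseudocount of 0.1, and 7 in limma at a mean of at least 5 FPKM or without the 42 small RNA entries. It was 0 with no filter (41 of 231 at an unadjusted p under 0.05) and 0 without the variance trend (32 of 126). The 7 were Slc31a2, Slc7a7, Slc24a6, Slc2a6, Slc26a2, Slc16a10 and Slc25a37 in both cases, 4 higher and 3 lower. Leaving out 1 library gave 0 in every case, with 18 to 26 of 126 at an unadjusted p under 0.05 in limma. For all tested genes the count of 112 became 3 with no filter, 226 at a mean of at least 5 FPKM, 71 with quantile normalization, 2 without the trend, 365 without small RNA entries and 12 to 16 with 1 library left out; small RNA entries and the filter change which genes are tested and the fitted spread. The labels do not say that replicate numbers mark a shared source, and same-numbered libraries deviated with a correlation of 0.011. With the replicate number as a block, 240 genes passed, among them 4 carriers (Slc31a2, Slc7a7, Slc24a6 and Slc2a6).

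Of 519 values of named carriers under the alternatives, 14 changed sign, all from 7 genes with small differences, and the cause was not tested. Slc7a8 became -0.025 with quantile normalization and -0.0014 with median-of-ratios scaling. With 1 library left out, the log2 fold changes ran from -0.027 to 0.037 for Slc7a8, -0.018 to 0.15 for Slc15a4, -0.040 to 0.030 for Slc27a1, -0.11 to 0.072 for Slc29a1, -0.036 to 0.028 for Slc44a1, -0.049 to 0.089 for Slc46a3 and -0.32 to 0.15 for Slc7a6os. In those fits the lone library of a group is assumed to vary like the other group. Absolute depth is unknown, so counting error cannot be stated for carriers near 1 FPKM.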
